A study of Mus musculus with 10 samples.

Results

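Splicing factor genes were examined in dendritic cells exposed to a plant extract. The 50 genes studied are those of the count table named Srsf, Hnrnp, Snrp, Sf3a or Sf3b, pseudogene copies left out, with at least 60 reads over the 6 RNA libraries. They fall into 10 SR protein genes, 20 hnRNP genes, 11 snRNP protein genes and 9 SF3 genes, out of 24385 gene symbols. All 50 were among the 13075 genes with enough reads to be tested. The read minimum left out Srsf12 with 8 reads and Snrpn with 0, whereas the lowest gene kept, Snrpf, had 122.

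The cells were bone marrow-derived dendritic cells (BMDCs), antigen-presenting cells raised from marrow progenitors, of female wild-type C57BL/6 mice 8-10 weeks old. All cultures held 20 ng/mL GM-CSF, the growth factor that drives this differentiation, and lasted 7 days, with the non-adherent immature cells harvested on day 6. One group then received AMLE, an apple mango leaf extract, at 400 µg/mL for 24 h, and the other received 0.04% DMSO, the vehicle, for 24 h. Each group had 3 RNA-seq libraries and 2 ATAC-seq libraries, which map open chromatin. Whether the replicates of a group are different animals or cultures is not stated in the labels, and the p-values reflect just the spread among these libraries, which may be technical.

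RNA libraries held 26010455 to 34208286 counted reads in AMLE cells and 28457863 to 31413578 in DMSO cells. Levels are given as CPM, reads scaled to each library's effective total. Without transcript lengths they compare a gene between libraries, not one gene with another. Log2 fold changes are AMLE minus DMSO, with a standard error (SE), and a gene is called where the edgeR adjusted p over all tested genes lies below 0.05. On the leading principal component, with 76.6% of the variance, AMLE replicate 3 (23.0) lay closer to the DMSO libraries (−42.0 to −31.1) than AMLE replicates 1 and 2 (38.3 and 46.5). Marker counts stand beside the shares over all tested genes, of which 25.6% were called lower and 23% higher. Of 12 dendritic cell markers, 6 were higher and 1 lower, with sums of 8720 to 10078 CPM in AMLE libraries and 7404 to 11316 CPM in DMSO libraries. The higher count was 6 in every alternative, but 5 were lower with the replicate block, 4 without both libraries numbered 3, 2 without DMSO replicate 1 or AMLE replicate 3, and 0 without any other 1 library. Cd74 averaged 3205 CPM in AMLE cells and 3931 CPM in DMSO cells, and Itgax, which encodes CD11c, averaged 688 CPM in AMLE cells and 708 CPM in DMSO cells. Flt3 and Zbtb46, markers of conventional dendritic cells, averaged 39.2 and 45.5 CPM in AMLE cells and 8.15 and 24.8 CPM in DMSO cells. Macrophage markers summed to 898 to 1553 CPM in AMLE libraries and 1701 to 2029 CPM in DMSO libraries, with 9 of 12 lower and 1 higher (0 higher without DMSO replicate 1 or 3 or AMLE replicate 1 or 2). Markers of neutrophils and their precursors summed to 8788 to 12261 CPM in AMLE libraries and 13510 to 21442 CPM in DMSO libraries, with 9 of 11 lower. Mast cell and basophil markers ran the other way, at 348 to 673 CPM in AMLE libraries against 215 to 364 CPM in DMSO libraries, with 5 of 9 tested genes higher. That count was 8 without both libraries numbered 3, without AMLE replicate 3 and with the replicate block, and 3 without DMSO replicate 2 or 3 or AMLE replicate 1 or 2. Lymphocyte markers summed to 31.0 to 50.3 CPM in AMLE libraries and 27.9 to 39.6 CPM in DMSO libraries, and erythroid markers to 0.65 to 1.02 CPM in AMLE libraries and 0.67 to 1.05 CPM in DMSO libraries, with 4 of 7 at 0 throughout. The part of these cell mixtures in the results was not tested, and in bulk RNA fewer cells of a type and less RNA per cell cannot be told apart.

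Pre-mRNA splicing removes introns in the spliceosome, a machine assembled anew on each intron from small nuclear ribonucleoproteins (snRNPs). In each U snRNP of the main pathway except U6, a ring of Sm proteins encircles the small RNA, and further proteins give each snRNP its role. U1 recognises the start of an intron and U2 its branch point, where the SF3a and SF3b complexes of U2 hold the RNA. SR proteins bind exons and generally promote the use of nearby splice sites, whereas hnRNP proteins coat nascent transcripts, often oppose SR proteins, and also act in mRNA export, stability and translation. Immune cells change splicing of many transcripts on activation.

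Promoters of 6 genes are shown because the values below turn on these genes. Hnrnpab, Srsf2, Snrpa1 and Sf3a3 had the largest fall of their family among genes with a printed promoter, Sf3b1 was the most highly counted SF3 gene and was not called, and Snrpe had no open chromatin peak near its start. Each line gives the 250 bases before a RefSeq transcript start in build GRCm38.p6, 5′ to 3′ on the strand of the gene. Capitals mark the letters CCGGAA (the core bound by ETS factors) or an NRF1-like motif (GCGC, any base, then TGCGC) on either strand, and CACGTG was searched too but found in none of the 6.
Hnrnpab, chr11:51606882-51607131, minus strand: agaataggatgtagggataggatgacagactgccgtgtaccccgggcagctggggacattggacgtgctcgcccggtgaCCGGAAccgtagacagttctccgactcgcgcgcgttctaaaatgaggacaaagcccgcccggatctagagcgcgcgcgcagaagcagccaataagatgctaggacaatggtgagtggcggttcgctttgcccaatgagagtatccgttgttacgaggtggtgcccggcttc
Srsf2, chr11:116853095-116853344, minus strand: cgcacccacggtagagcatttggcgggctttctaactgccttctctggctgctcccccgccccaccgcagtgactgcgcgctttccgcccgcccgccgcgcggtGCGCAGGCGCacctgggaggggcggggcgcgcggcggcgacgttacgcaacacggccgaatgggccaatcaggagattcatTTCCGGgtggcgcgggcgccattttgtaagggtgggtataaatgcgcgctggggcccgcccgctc
Snrpa1, chr7:66060086-66060335, plus strand: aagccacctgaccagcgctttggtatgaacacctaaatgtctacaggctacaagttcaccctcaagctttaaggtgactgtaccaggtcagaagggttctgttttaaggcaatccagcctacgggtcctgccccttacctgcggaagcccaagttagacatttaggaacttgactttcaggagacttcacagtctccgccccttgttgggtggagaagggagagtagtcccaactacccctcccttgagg
Sf3a3, chr4:124714611-124714860, plus strand: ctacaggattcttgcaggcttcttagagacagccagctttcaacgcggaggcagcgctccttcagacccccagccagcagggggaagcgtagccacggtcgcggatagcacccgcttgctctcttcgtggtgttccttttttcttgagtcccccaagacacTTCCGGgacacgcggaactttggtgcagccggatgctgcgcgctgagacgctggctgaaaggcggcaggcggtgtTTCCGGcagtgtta
Sf3b1, chr1:55027479-55027728, minus strand: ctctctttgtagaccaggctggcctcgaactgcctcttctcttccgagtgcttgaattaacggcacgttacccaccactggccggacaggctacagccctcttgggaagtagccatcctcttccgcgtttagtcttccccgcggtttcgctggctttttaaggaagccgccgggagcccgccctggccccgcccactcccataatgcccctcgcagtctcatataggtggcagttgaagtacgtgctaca
Snrpe, chr1:133610281-133610530, minus strand: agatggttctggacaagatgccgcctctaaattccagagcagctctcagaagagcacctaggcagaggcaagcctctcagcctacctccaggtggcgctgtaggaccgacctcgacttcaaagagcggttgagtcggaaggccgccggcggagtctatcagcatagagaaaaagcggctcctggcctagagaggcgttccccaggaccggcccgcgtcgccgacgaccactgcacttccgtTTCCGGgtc

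Transcripts of the splicing factors were lower in AMLE cells across all 4 families, and none was called higher. Of the 50 genes, 37 were lower, against 25.6% of all tested genes, and 0 were higher, against 23% of all tested genes. The 13 others did not pass the test. The count of 0 higher held at an unadjusted p below 0.05 in edgeR, and DESeq2 and limma-voom also called 0. The falls were modest: the median change of the 37 called genes was −21.9%, within −43.3% to −9.10%. Only 4 of the 50 genes were called and lower by at least 1.5-fold, Hnrnpab, Snrpd1, Snrpa1 and Srsf2, against 9.32% of all tested genes. Falls of that size were thus no more frequent here than among all tested genes, and the other called genes fell by less. Replicates lay close together, with a median coefficient of variation of 4.72% in AMLE cells and 2.65% in DMSO cells over the 50 genes. For 42 genes every AMLE library was below every DMSO library, which 31.4% of all tested genes showed, and for 0 every AMLE library was above every DMSO library, against 28.4% of all tested genes. Summed over the 50 genes, the level was 7965 ± 192 CPM in AMLE cells and 9702 ± 130 CPM in DMSO cells (SD, n = 3 each). In each of the 6 fits that left out 1 library, 34 to 37 genes were called lower, and 33 genes were lower in all 6.

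**Figure D1:**
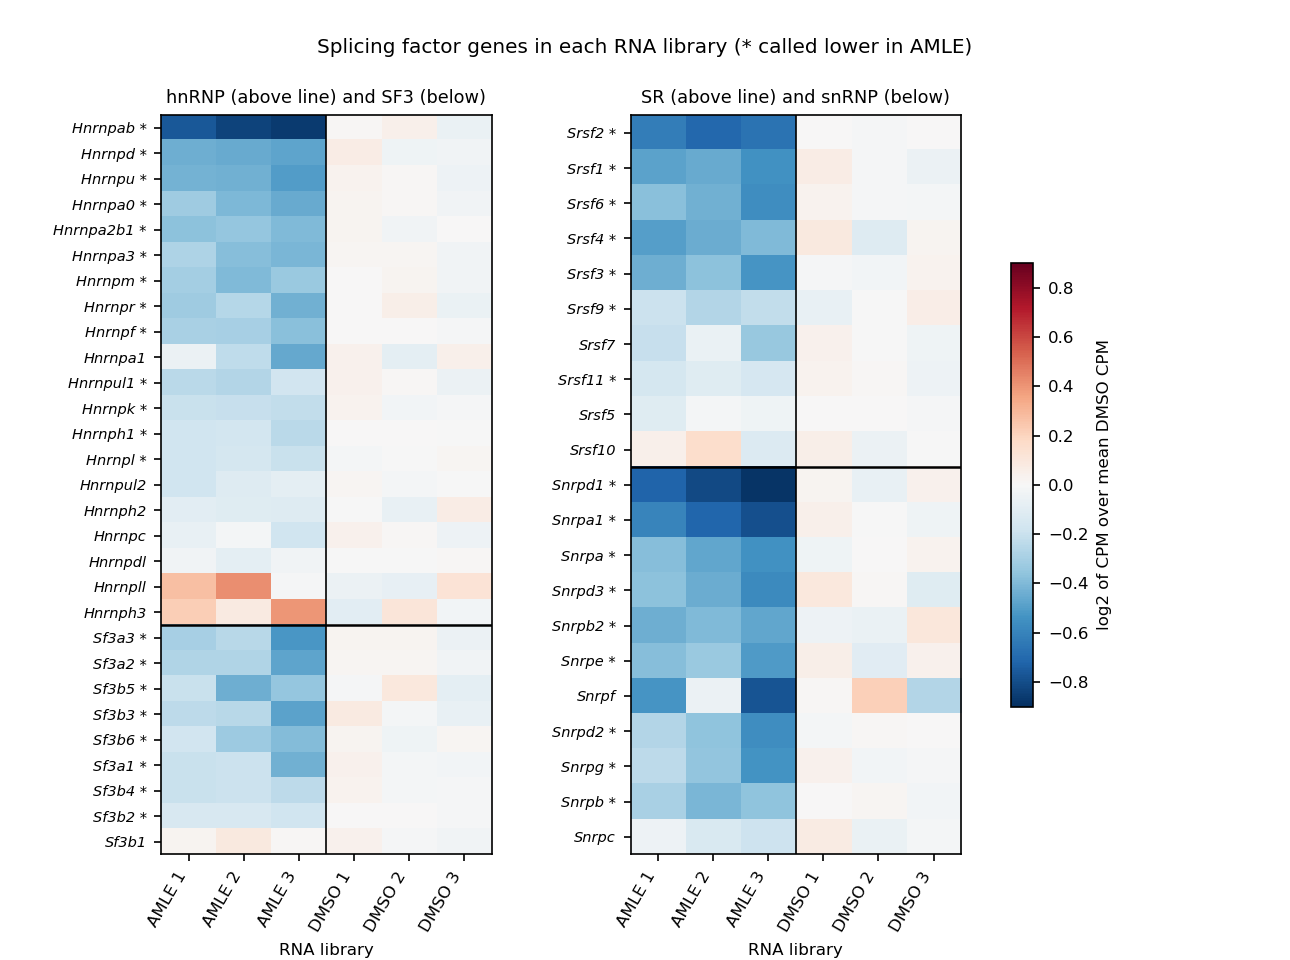
Each cell is the log2 ratio of a gene's CPM in 1 RNA library to its mean CPM in the 3 DMSO libraries, with AMLE libraries left of DMSO libraries and genes ordered by fold change within each family. Blue cells fill the AMLE columns for nearly all genes, darkest for Hnrnpab and Snrpd1, while Hnrnpll and Hnrnph3 stand out in red and neither was called.

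By family, the snRNP proteins shifted the furthest on the log2 scale, with a median change of −0.41, and 9 of 11 were lower. The median was −0.33 for the SR proteins with 7 of 10 lower, −0.29 for SF3 with 8 of 9 lower, and −0.23 for the hnRNP proteins with 13 of 20 lower. The median over all tested genes was −0.01. In AMLE replicates 1, 2 and 3, the snRNP median relative to the DMSO mean was −0.38, −0.39 and −0.54, and the hnRNP median was −0.22, −0.24 and −0.29. The SR medians were −0.29, −0.32 and −0.37, the SF3 medians −0.20, −0.25 and −0.39, and every DMSO library lay between −0.03 and 0.03 for all 4 families. AMLE replicate 3 was the lowest AMLE library for 38 of the 50 genes, and it was also the AMLE library nearest to DMSO on the leading component. Differences between families were not tested.

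**Figure D2:**
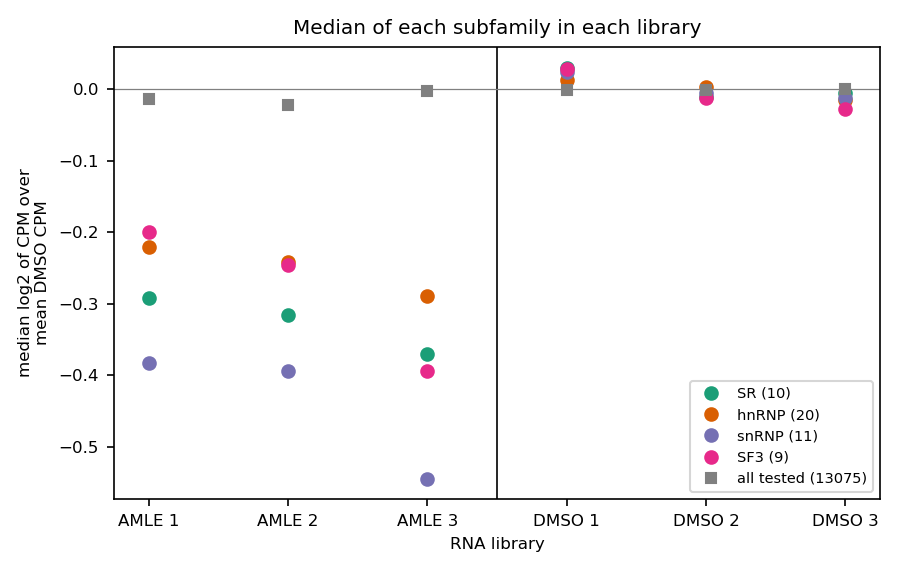
Points are the median, over the genes of a family, of the log2 ratio to the DMSO mean in 1 RNA library, for AMLE and DMSO libraries and for all tested genes. All AMLE points of the 4 families lie between −0.54 and −0.20, whereas the all-gene medians lie between −0.02 and 0.

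Among SR proteins the falls were led by Srsf2, also called SC35, a resident of nuclear speckles that binds exonic enhancers. Srsf2 stood at 191, 181 and 186 CPM in AMLE replicates 1 to 3 and at 295, 293 and 296 CPM in DMSO replicates 1 to 3. The groups did not overlap, and the log2 fold change was −0.66 ± 0.04 (SE; edgeR adjusted p = 7.8e-05). Srsf1, the founding SR protein, which promotes U1 binding at the start of introns, had 210, 214 and 201 CPM in AMLE libraries against 307, 291 and 282 CPM in DMSO libraries (−0.49 ± 0.05, edgeR adjusted p = 0.00038). Srsf6 had 163, 156 and 143 CPM in AMLE libraries against 215, 209 and 208 CPM in DMSO libraries (−0.45 ± 0.06, edgeR adjusted p = 0.00083). Neither gene had an AMLE library within the DMSO range.

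Srsf3, a small SR protein that also serves as an adaptor for mRNA export, fell by 0.44 on the log2 scale, to 170 ± 9.39 CPM in AMLE cells against 231 ± 4.49 CPM in DMSO cells. Srsf4 fell by 0.45, at 14.3 ± 0.48 CPM in AMLE cells against 19.5 ± 1.39 CPM in DMSO cells. Srsf9 changed less, by −0.23, with 64.3 ± 1.51 CPM in AMLE cells and 75.1 ± 3.36 CPM in DMSO cells. Srsf11, at 127 ± 2.45 CPM in AMLE cells and 140 ± 3.65 CPM in DMSO cells, was called at the margin (−0.14 ± 0.04, edgeR adjusted p = 0.034). The Srsf11 call was lost in 9 of 14 alternative settings, among them leaving out DMSO replicate 1 or 2 or any 1 AMLE library.

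The remaining 3 SR genes did not pass. Srsf5, the SR gene with the most reads, had 338, 361 and 355 CPM in AMLE libraries and 365, 366 and 363 CPM in DMSO libraries (−0.05 ± 0.05, edgeR adjusted p = 0.38). The Srsf5 groups were separate but the gap was smaller than the spread within AMLE. Srsf10, which acts as a repressor of splicing when dephosphorylated, had 126, 136 and 112 CPM in AMLE libraries against 126, 118 and 121 CPM in DMSO libraries (0.03 ± 0.07, edgeR adjusted p = 0.74), and the groups overlapped. Srsf7, another export adaptor, had 132, 147 and 120 CPM in AMLE libraries against 157, 152 and 148 CPM in DMSO libraries (−0.20 ± 0.07, edgeR adjusted p = 0.062). With the replicate number as a block, the Srsf7 adjusted p from edgeR was 0.019, and without AMLE replicate 2 it was 0.014.

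**Figure D3:**
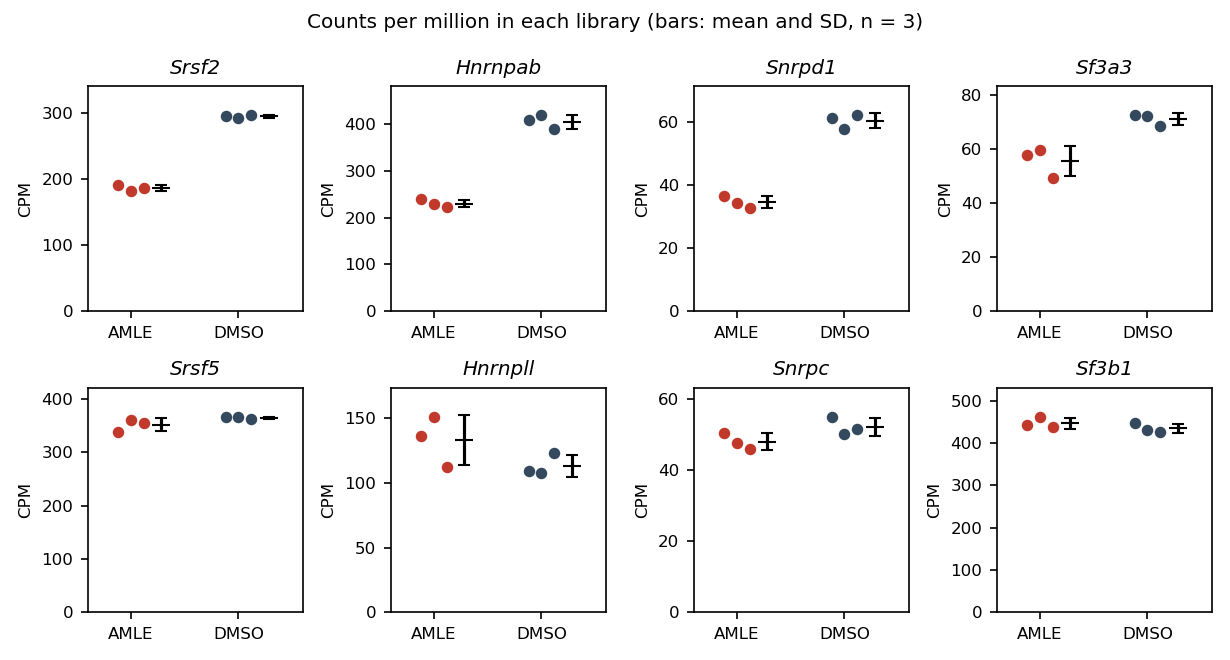
Points are the CPM of selected splicing factor genes in each RNA library, AMLE left of DMSO, with the mean and SD of 3 libraries as bars, and each panel has its own axis from 0. Srsf2, Hnrnpab, Snrpd1 and Sf3a3 show a gap between groups, whereas the points of Hnrnpll, Snrpc and Sf3b1 overlap and those of Srsf5 nearly touch.

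The largest fall of all 50 genes was that of Hnrnpab, an hnRNP of the same subgroup as Hnrnpd that binds mRNA and takes part in its transport. Hnrnpab had 239, 228 and 223 CPM in AMLE libraries and 409, 419 and 389 CPM in DMSO libraries. The lowest DMSO library thus lay far above the highest AMLE library, with a log2 fold change of −0.82 ± 0.05 (edgeR adjusted p = 7.2e-05). Hnrnpd, also known as AUF1, which binds AU-rich elements of short-lived mRNAs including cytokine mRNAs, had 132, 131 and 129 CPM in AMLE libraries against 188, 175 and 175 CPM in DMSO libraries (−0.46 ± 0.05, edgeR adjusted p = 0.00035). Hnrnpu, a nuclear matrix protein that binds RNA and chromatin, had 433, 430 and 410 CPM in AMLE libraries against 593, 584 and 563 CPM in DMSO libraries (−0.45 ± 0.05, edgeR adjusted p = 0.00047). Hnrnpab, Hnrnpd and Hnrnpu were each called lower in every alternative setting.

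Hnrnpa2b1, the hnRNP gene with the most reads, encodes a core particle protein that also sorts RNAs for transport. It had 681, 691 and 668 CPM in AMLE libraries and 898, 860 and 884 CPM in DMSO libraries, without overlap (−0.37 ± 0.05, edgeR adjusted p = 0.00093). Hnrnpk, a poly(C)-binding protein, had 490, 488 and 484 CPM in AMLE libraries against 576, 554 and 560 CPM in DMSO libraries. Its fall was small but much larger than the spread between replicates (−0.21 ± 0.05, edgeR adjusted p = 0.0080). Between these sizes lay Hnrnpa0 (−0.39), Hnrnpa3 (−0.36), Hnrnpm (−0.34), Hnrnpr (−0.33) and Hnrnpf (−0.32). Hnrnpul1 (−0.23), Hnrnph1 (−0.20) and Hnrnpl (−0.18) were the smaller called changes, Hnrnpf and Hnrnph1 being G-tract binders and Hnrnpl a binder of CA repeats. The Hnrnpl call was lost without AMLE replicate 1, at an edgeR adjusted p of 0.051.

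Of the hnRNP genes, 7 did not pass. Hnrnpul2 had 366, 382 and 390 CPM in AMLE libraries against 419, 410 and 414 CPM in DMSO libraries (−0.13 ± 0.05, edgeR adjusted p = 0.058), and passed at 0.045 when libraries were scaled by their totals only. Hnrnpc, which forms the tetramer that measures out the hnRNP particle and binds uridine tracts, had 299 ± 16.7 CPM in AMLE cells and 317 ± 9.49 CPM in DMSO cells, with overlapping groups. Hnrnpdl stood at 161 ± 3.58 CPM in AMLE cells and 167 ± 1.11 CPM in DMSO cells, and Hnrnph2 at 88.9 ± 0.74 CPM in AMLE cells and 95.6 ± 4.4 CPM in DMSO cells. Hnrnpa1 had only 5.96 to 7.88 CPM in AMLE libraries and 7.69 to 8.44 CPM in DMSO libraries. Processed copies exist for Hnrnpa1 and Srsf3, and both levels are uncertain, because the treatment of reads shared with such copies is not given in the sources used here.

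Hnrnpll and Hnrnph3 had positive log2 fold changes and were not called. Hnrnpll, a regulator of CD45 exon skipping in lymphocytes, had 136, 151 and 112 CPM in AMLE libraries and 109, 107 and 123 CPM in DMSO libraries. AMLE replicate 3 lay inside the DMSO range (0.24 ± 0.11, edgeR adjusted p = 0.13). Without AMLE replicate 3, Hnrnpll was called higher (0.36, edgeR adjusted p = 0.0062), and it was called without both libraries numbered 3 (0.42, edgeR adjusted p = 0.00042). Hnrnph3 had 10.8, 9.80 and 12.2 CPM in AMLE libraries against 8.71, 10.0 and 9.13 CPM in DMSO libraries (0.24 ± 0.11, edgeR adjusted p = 0.11), with overlap.

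In the snRNP family, 6 of the 7 Sm ring genes were lower, with a median log2 change of −0.40. Snrpd1, which encodes SmD1, had 36.6, 34.4 and 32.7 CPM in AMLE libraries against 61.5, 57.8 and 62.2 CPM in DMSO libraries. The highest AMLE library was well below the lowest DMSO library (−0.81 ± 0.06, edgeR adjusted p = 0.00011). Snrpb, which encodes SmB and SmB′, had 163, 150 and 155 CPM in AMLE libraries and 199, 202 and 196 CPM in DMSO libraries (−0.35 ± 0.05, edgeR adjusted p = 0.0010). Snrpd3 (SmD3) had 64.0, 60.5 and 55.5 CPM in AMLE libraries against 87.9, 83.0 and 76.4 CPM in DMSO libraries, again without overlap (−0.46 ± 0.07, edgeR adjusted p = 0.0022). Snrpe (−0.41), Snrpd2 (−0.39) and Snrpg (−0.37) fell by like amounts. The ring member that did not pass, Snrpf, had 0.54, 0.76 and 0.46 CPM in AMLE libraries against 0.80, 0.91 and 0.66 CPM in DMSO libraries, and its log2 fold change of −0.40 carried an SE of 0.28. With 122 reads in all, and the treatment of reads shared between near-identical sequences not given, the Snrpf level is uncertain too.

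Both U2-specific genes of the family were lower, with a median of −0.56. Snrpa1, which encodes the A′ protein of U2, had 31.5, 29.0 and 27.4 CPM in AMLE libraries and 49.0, 47.3 and 46.2 CPM in DMSO libraries, with no overlap (−0.70 ± 0.06, edgeR adjusted p = 0.00023). Snrpb2, which encodes its partner, the B″ protein, stood at 38.9 ± 0.96 CPM in AMLE cells and 52.4 ± 3.38 CPM in DMSO cells (−0.43). The U1 proteins were uneven. Snrpa (the A protein of U1) had 51.7, 48.8 and 46.2 CPM in AMLE libraries against 65.5, 67.7 and 68.9 CPM in DMSO libraries (−0.46 ± 0.06, edgeR adjusted p = 0.00066). Snrpc (the C protein of U1) had 50.5, 47.6 and 45.9 CPM in AMLE libraries against 54.9, 50.0 and 51.6 CPM in DMSO libraries, an overlapping pair of groups (−0.12 ± 0.06, edgeR adjusted p = 0.13). The third U1 protein gene, Snrnp70, has a different name stem and is not among the 50, and it averaged 416 ± 25.1 CPM in AMLE cells and 403 ± 22.5 CPM in DMSO cells without a call.

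All 3 SF3a genes and 5 of the 6 SF3b genes were lower. Sf3a3 had 57.9, 59.9 and 49.4 CPM in AMLE libraries against 72.6, 72.5 and 68.6 CPM in DMSO libraries (−0.35 ± 0.08, edgeR adjusted p = 0.0080). Sf3a2 had 57.9, 57.7 and 50.2 CPM in AMLE libraries against 70.4, 70.6 and 68.1 CPM in DMSO libraries (−0.33 ± 0.07, edgeR adjusted p = 0.0050). In both, AMLE replicate 3 lay lowest and the groups stayed apart. Sf3b5 had 57.9, 49.0 and 52.2 CPM in AMLE libraries against 65.8, 70.9 and 62.5 CPM in DMSO libraries (−0.32 ± 0.08, edgeR adjusted p = 0.011). Sf3b3 (−0.32), Sf3b6, the subunit at the branch adenosine (−0.29), Sf3a1 (−0.27) and Sf3b4 (−0.21) were also lower, Sf3a1 losing its call without DMSO replicate 1 (edgeR adjusted p = 0.058).

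Sf3b2 had 299.96, 300.01 and 293 CPM in AMLE libraries and 333, 333 and 330 CPM in DMSO libraries, a separate but small difference (−0.16 ± 0.04, edgeR adjusted p = 0.019). The Sf3b2 call was lost in 5 of 14 alternative settings. It was lost without DMSO replicate 1 or 2 and without AMLE replicate 1, at edgeR adjusted p of 0.061, 0.068 and 0.072. It was also lost with upper-quartile scaling (edgeR adjusted p = 0.052) and without both libraries numbered 3 (edgeR adjusted p = 0.054). Sf3b1, the largest SF3b subunit, which clamps the branch point helix, had the most reads of the SF3 genes and differed from its partners. It had 442, 462 and 438 CPM in AMLE libraries and 447, 431 and 426 CPM in DMSO libraries, overlapping and with no call (0.04 ± 0.05, edgeR adjusted p = 0.52). Summed CPM of the SF3 genes fell by 10.3%, the smallest fall of the 4 families, with Sf3b1 carrying the most counts, against 25.5% for the snRNP, 19.5% for the SR and 18.3% for the hnRNP genes.

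Other genes of the splicing pathway were taken as whole lists, and lower calls outnumbered higher calls in all 9 lists. The same held over all tested genes, at 25.6% lower and 23% higher. The share lower ran from 23.1% for the SR-related list, below that of all tested genes, to 80% for the LSm list. Of 10 LSm ring genes, most of whose products bind U6 RNA or act in mRNA decay, 8 were lower and 0 higher in edgeR. The count higher was also 0 at an unadjusted p below 0.05, in DESeq2 and in limma-voom. The median log2 change of the LSm genes was −0.53, and Lsm2 (−0.98 ± 0.07, edgeR adjusted p = 0.00012) and Lsm5 (−0.65) led the falls. Of 18 genes for the SMN complex, which loads Sm rings onto RNA, 12 were lower and 1 higher (median −0.42). Gemin4 had 11.6, 12.4 and 9.97 CPM in AMLE libraries against 20.4, 20.6 and 20.4 CPM in DMSO libraries, and Prmt5, which methylates Sm proteins, had 35.5, 32.3 and 29.3 CPM in AMLE libraries against 58.6, 55.3 and 46.5 CPM in DMSO libraries. The higher gene was Snupn, an import adaptor of snRNPs (0.33), with no higher call without DMSO replicate 1 or 3 or AMLE replicate 2, and 2 without AMLE replicate 3. Of 30 other regulators of alternative splicing, 19 were lower, with Mbnl3 (−1.19) and Mbnl1 (−0.70) furthest, and only the cold-inducible Cirbp was higher (0.39), with 2 higher genes without DMSO replicate 3 and with the replicate block.

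Proteins of branch point and 3′ splice site recognition had 8 of 15 genes lower and 0 higher, among them U2af1, which reads the intron's last bases (−0.52), and Phf5a, a further SF3b subunit outside the name rule (−0.39). In that list edgeR gave 2 genes higher at an unadjusted p below 0.05 and also called 2 without AMLE replicate 3, whereas DESeq2 and limma-voom called 0. Of 25 proteins of single snRNPs and the tri-snRNP, 13 were lower, led by Ppih (−0.73) and Prpf31 (−0.46), and 1 was higher, Zmat5 of the minor spliceosome (0.31), whose call was lost without DMSO replicate 1 or 2 or AMLE replicate 1 or 2. Of 24 proteins of the catalytic steps, 10 were lower and 0 higher in edgeR (also 0 at an unadjusted p below 0.05, in DESeq2 and in limma-voom, and 1 without AMLE replicate 3), led by Ppil1 (−0.94) and the lariat debranching enzyme Dbr1 (−0.54). These 3 lists had medians of −0.19, −0.17 and −0.13.

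Of 11 genes listed for SR protein kinases and phosphatase, 4 were lower (median −0.14) and 1 was higher, Clk1 (0.20). Among those of at least 10 mean CPM, Pnn (−0.27), itself neither a kinase nor a phosphatase, and the kinase Srpk1 (−0.20) fell furthest. Below 10 mean CPM, 1 further called gene was lower by at least 1.5-fold. That list had 2 lower genes without DMSO replicate 1 or AMLE replicate 1, and 0 higher without DMSO replicate 2 or 3 or AMLE replicate 1 or 2. Of 26 SR-related genes, 6 were lower, including Tra2b (−0.49) and Luc7l3 (−0.33), and 3 were higher, Scaf1, Scaf8 and Rsrp1, shares close to or below those of all tested genes. The SR-related list had 1 higher call whichever DMSO library was left out. Of 22 exon junction and mRNA export genes, 10 were lower, with Alyref (−0.81) and Nxt1 (−0.55) furthest among those of at least 10 mean CPM, and 4 were higher, Casc3, Nxf1, Upf2 and Smg1. Nxf1, the main mRNA export receptor, thus stood higher at 316 ± 19.6 CPM in AMLE cells and 239 ± 6.58 CPM in DMSO cells while its partner Nxt1 stood lower.

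**Figure D4:**
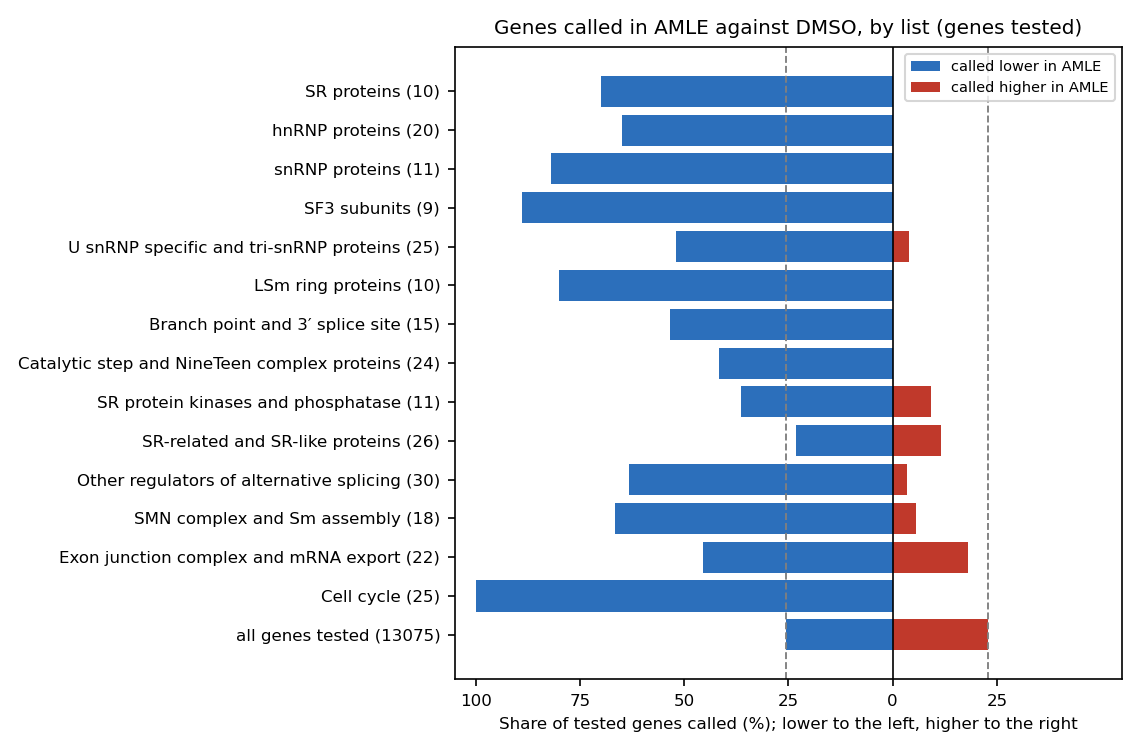
Bars give the percent of tested genes called lower (to the left) and higher (to the right) in AMLE for the 4 splicing factor families, the other splicing lists, cell cycle genes and all tested genes, whose shares are also drawn as dashed lines. The 4 families have no bar to the right and reach 65% or more to the left, against 25.6% lower and 23% higher of all tested genes.

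Cell cycle genes were lower in AMLE cells as well. All 25 of that list were lower (median log2 change −1.97), with Cdc20 (−2.56) and Plk1 (−2.49) furthest, and summed to 851 to 1072 CPM in AMLE libraries and 3019 to 3415 CPM in DMSO libraries. Their part in the splicing factor result was not tested. Among the AMLE libraries, replicate 3 had the highest cell cycle sum, 1072 CPM, and the lowest level of most splicing factor genes. The order of the libraries within AMLE does not bear on the difference between groups, where every AMLE sum lay below every DMSO sum. Gene counts do not show which isoforms were made, so splicing itself was not measured here.

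Open chromatin at the starts of these genes was found in both groups. RefSeq starts were listed for 44 of the 50 genes, at 58 positions, and not for Hnrnpll, Hnrnpul2, Sf3b4, Sf3b5, Snrpb and Snrpd1. A peak lay within 500 bases of a start for 43 of the 44 genes in each AMLE library, where the share over the 9978 tested genes with a listed start was 71.8% and 71.6%. The same 43 genes had such a peak in each DMSO library, where the share over those 9978 genes was 73.1% and 75.4%. With a peak at nearly every gene, presence could not part the lower genes from the others. Snrpe, lower by 0.41 on the log2 scale, was the exception, and its nearest peak lay between 50823 and 50946 bases away in all 4 libraries. For 41 genes a start lay inside a peak in all 4 libraries.

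Peak height is the authors' fold enrichment over local background, ranked here within each library's own list of 15805 and 15597 intervals in AMLE and 18460 and 19225 in DMSO cells. The median percentile of the 43 genes' peaks was 78.2 and 79.9 in AMLE libraries and 77.4 and 82.5 in DMSO libraries, in the upper part of each list. At Hnrnpab the peak covered chr11:51605936-51607270 in AMLE replicate 1 and chr11:51606558-51607339 in DMSO replicate 1, and in all 4 libraries it held the whole Hnrnpab promoter stretch given earlier. The Hnrnpab percentiles were 57.6 and 43.7 in AMLE libraries and 87.8 and 80.9 in DMSO libraries. At Srsf2 they were 67.3 and 69.4 in AMLE libraries and 68.6 and 70.5 in DMSO libraries. The Sf3b1 peaks ranked at 91.4 and 71.9 in AMLE libraries and 89.5 and 84.8 in DMSO libraries. The lists differ in length and the ranks were not tested, so no change in accessibility is read from them.

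**Figure D5:**
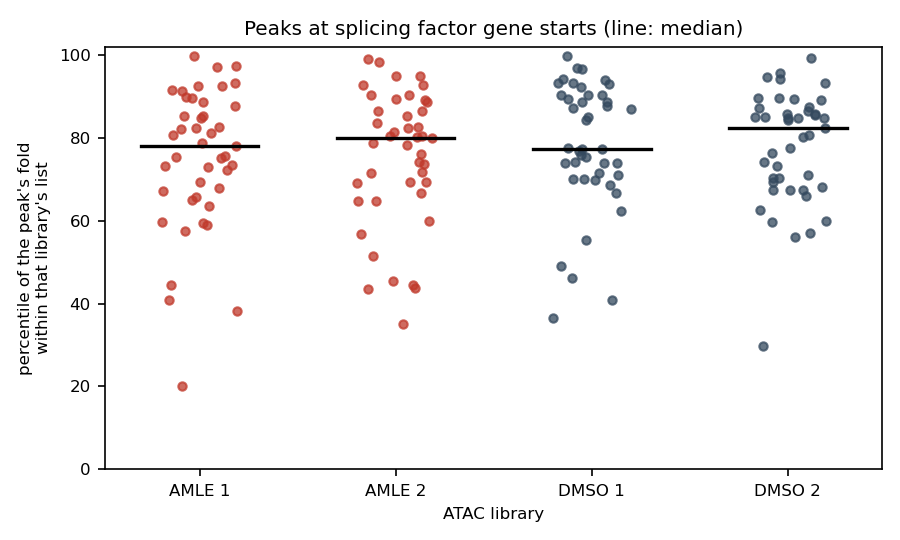
Points are the percentile of the authors' peak fold at the start of each splicing factor gene within the peak list of 1 ATAC library, AMLE left of DMSO, with the median as a line. Medians lie between 77.4 and 82.5 in the 4 libraries, and the points are not labelled by gene.

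The start windows, 250 bases before to 50 after each of the 58 starts, were searched on both strands for fixed letters. CCGGAA was present in 29 windows, or 50%, against 26.4% of windows of all tested genes and 14.9% of all windows, and in the printed promoters it stands in Hnrnpab, Srsf2, Sf3a3 and Snrpe. The NRF1-like motif was present in 11 windows (19.0%, against 9.46% of tested-gene windows and 4.60% of all windows), among them that of Srsf2. GGGCGG was found in 42 windows (72.4%, against 60.6% of tested-gene windows and 35.7% of all windows), CCAAT in 27 (46.6%, against 37.4% for each), and CACGTG, an E-box, in 7 (12.1%, against 9.73% of tested-gene windows and 7.15% of all windows). GGGCGG can lie inside longer GC-rich matches, and several windows belong to 1 gene, so windows are not independent. These matches are descriptions of the sequence and not of bound factors.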

How the data were processed

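For RNA, the authors deposited raw read counts per gene symbol for 3 AMLE and 3 DMSO libraries, made from stranded poly(A) libraries per the labels' protocols. The deposited ATAC files are peak lists, 1 for each of 2 AMLE and 2 DMSO libraries, whose summits carry a −log10 q and a fold, the ratio to local background. Trim Galore 0.6.7, STAR 2.7.11b, SAMtools 1.7, Bowtie2 2.4.4, MACS3 3.0.0a7 and build mm10 are named in the submitters' processing notes, without roles. How reads were counted, whether by strand and how shared reads were treated, is not given in the sources used here. Overlapping, antisense or near-identical genes are therefore uncertain. Sample groups and replicate numbers come from the sample titles, and 0 per-sample columns were left unused.

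The 50 genes and all gene lists were chosen with earlier results of these data known. From the counts, edgeR 4.0.16 in R 4.3.3 (TMM factors, low-count filter with minimum count 10, robust quasi-likelihood F test, two-sided) tested 13075 genes, with Benjamini-Hochberg adjustment over all of them. Each SE was obtained by dividing the size of the log2 fold change by the root of its F statistic. The test was tried on simulated counts first. Alternatives were relative log expression, upper-quartile and total scaling, no filter, DESeq2 1.42.0, limma-voom (limma 3.58.1), the replicate block, each library left out, and both libraries numbered 3 left out. With the same replicate number, deviations from group means correlated at 0.29, 0.28 and 0.43 across genes, against −0.31 to 0.11 for other pairs. Every same-number correlation exceeded 0.1, the level set for taking the numbers as pairs, but other pairs reached 0.11 too. Whether the numbers pair libraries is therefore not settled. The main fit used no pairing, so its SEs, p-values and calls ignore any, and the replicate block was run as an alternative.

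Named in each family were the 3 called genes with the largest rise and fall, the 2 with most CPM and the uncalled gene with most CPM, and per list the 2 called genes of at least 10 mean CPM with the largest change. Other members are named to account for each, and the few higher genes of the lists, Snrnp70 and the dendritic markers were named after their values were seen. Of 275 list entries, 273 were in the table. All 50 genes matched RefSeq (GRCm38.p6, the same assembly as mm10), which also gave the sequences. Summits of a shared interval were merged. ATAC alternatives were a start inside a peak, 1000 bases, and a −log10 q of at least 5.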

Additional observations from a re-analysis of the deposited data

How the results depend on the processing

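Over 14 alternatives, 34 to 38 of the 50 genes were lower, and 33 were lower in every one. Leaving out 1 library gave 34 to 37 lower genes, 6 to 7 SR, 12 to 13 hnRNP, 9 snRNP and 6 to 8 SF3 genes. Higher calls among the 50 and among the hnRNP genes ranged over 0 to 1 when 1 library was left out, and 1 (Hnrnpll) was called without both libraries numbered 3. The SR median of −0.33 was −0.30 with upper-quartile factors and −0.28 without both libraries numbered 3. The hnRNP median of −0.23 was −0.20 with upper-quartile factors and ranged from −0.26 to −0.21 when 1 library was left out. The snRNP median moved from −0.41 to −0.34 once AMLE replicate 3 was dropped, and to −0.35 once DMSO replicate 3 was dropped too. The SF3 median moved from −0.29 to −0.23 in each of these fits. When both groups lacked replicate 3, the hnRNP median was also −0.23, so the gap between SF3 and hnRNP closed. With the replicate block 38 of the 50 genes were lower, Srsf7 being added, and it changed no other call among them.

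For the other splicing lists, leaving out 1 library gave 0 to 1 higher calls for proteins of single snRNPs and the tri-snRNP, 0 to 2 for branch point recognition, 0 to 1 for catalytic steps, 0 to 1 for SR protein kinases (2 to 3 lower), 1 to 4 for SR-related proteins, 1 to 2 for other regulators and 0 to 2 for SMN. Upper-quartile factors gave 2 higher for branch point recognition, 1 for catalytic steps and 5 for SR-related proteins, and relative log expression factors 1 for branch point recognition. Other regulators had 2 higher with the replicate block and 2 without both libraries numbered 3, where SMN had 3. The causes were not tested.

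Peak counts at gene starts stayed within 41 to 43 of 44 in each library under the 3 ATAC alternatives. Snrpf, Hnrnpa1 and Hnrnph3, the members with the fewest reads, had SEs of 0.28, 0.12 and 0.11. Gene counts hold no isoform information, and differences between ATAC groups were not tested.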
